A study of Mus musculus with 4 samples.

Results

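The wild-type (WT) motor neuron library of a Micro-C series was set against its WT embryonic stem cell library, 2 of its 4 libraries, chosen by their labels, to describe how chromosomes refolded over differentiation. Micro-C cuts cross-linked chromatin with micrococcal nuclease and ligates nearby nucleosomes, so that each ligated fragment records a contact between a pair of loci. The study asked how the zinc finger protein PATZ1 shapes genome organisation, and each WT library therefore had a PATZ1 knockout (KO) partner of the same cell state. WT ESC were mouse E14 embryonic stem cells kept in LIF with inhibitors of MEK and GSK3, which hold them in a naive pluripotent state. WT MN were cervical motor neurons made from the same line, by 2 days as embryoid bodies and then patterning with 1 µM retinoic acid and 0.5 µM smoothened agonist. PATZ1 KO ESC and PATZ1 KO MN came from E14 cells edited with CRISPR/Cas9 and grown from single clones. They carried no PATZ1, were cultured in the same way and are given only beside the WT values. The motor neuron cultures were not sorted, as far as the sources used here say, and Micro-C carries no RNA level. The cell types were not checked against marker RNAs here.

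Mammalian chromosomes fold on several scales. Cohesin extrudes loops of chromatin until it meets a barrier such as CTCF, which yields topologically associating domains (TADs) parted by insulating boundaries, while active (A) and inactive (B) chromatin separate into compartments over longer distances. In stem cells, promoters of developmental regulators bound by Polycomb proteins can contact each other over many megabases. The Hox clusters, whose genes set the position of motor neurons along the body axis, are compact Polycomb domains that open from their anterior end when retinoic acid is added.

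The sequences below show one form of the core of the CTCF consensus inside or within 2 bins of the bins where the Hox clusters were most insulated in WT MN, and at the one named boundary bin that was shallower there and held it. The letters AGGGGGCG were searched on both strands within 2 bins of the deepest WT MN bin of each Hox cluster and in the named boundary bins. They were found 10 times, and 6 of these windows of 60 bases are printed from the mm10 genome, 5′ to 3′ on the strand of the match, with the matched letters in capitals. The same letters were present in 6.88% of all 290346 bins analysed.
Hoxa7 intron, chr6:52217719-52217778, minus strand: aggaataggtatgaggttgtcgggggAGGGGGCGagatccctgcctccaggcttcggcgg
Hoxa9 intron, chr6:52225264-52225323, minus strand: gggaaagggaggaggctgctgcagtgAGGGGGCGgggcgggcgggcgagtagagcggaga
Beside the Hoxa10 start site, chr6:52240914-52240973, minus strand: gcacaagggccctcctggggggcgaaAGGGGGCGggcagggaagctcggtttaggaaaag
Upstream of Hoxb7, chr11:96285411-96285470, plus strand: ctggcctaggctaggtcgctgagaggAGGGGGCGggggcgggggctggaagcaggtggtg
Hoxd11 coding exon, chr2:74683064-74683123, plus strand: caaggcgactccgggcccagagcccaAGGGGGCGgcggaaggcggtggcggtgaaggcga
Beside the Khsrp start site, chr17:57031662-57031721, plus strand: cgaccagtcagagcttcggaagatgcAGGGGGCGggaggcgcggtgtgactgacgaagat
The insulation of each of these bins is given below. A match is a string of letters in the reference and does not show that a protein was bound.

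The deposited lists counted contacts between 8 kb bins on mm10, and the 19 autosomes were analysed. They held 166052904 autosomal contacts for WT ESC, 108195604 for WT MN, 154422469 for PATZ1 KO ESC and 113628498 for PATZ1 KO MN. These totals do not follow the numbers of sequenced reads that the study lists, and whether matrices were thinned before deposit is not given in the sources used here. A pair of bins was listed only where WT and PATZ1 KO of that state both had a contact, so that the PATZ1 KO values are not independent of the WT values. WT ESC had 22191618 listed pairs and WT MN 20312056, of which 11900118 were in both lists. Unless stated otherwise, ratios used these joined pairs, with both libraries scaled to equal totals at each distance. Insulation scores used each library's own list. Each group was 1 library, so no difference between the states could be tested, and a value was called higher or lower when it moved at least 1.5-fold. Intervals are 95%. Those of contact ratios cover counting error, those of medians cover the spread over boundaries, and those of shares count bins, boundaries or contacts as independent draws although neighbours are not. None covers the spread between cultures. In these bulk libraries a contact made in fewer cells and one made less often per cell cannot be told apart.

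A property of the WT MN library stands before the results. The number of contacts a bin made 16 to 400 kb away went with its GC content at a Spearman rho of -0.30 in WT ESC, 0.31 in WT MN, -0.22 in PATZ1 KO ESC and -0.29 in PATZ1 KO MN, as a description over neighbouring bins that share a library. WT MN thus stood apart from the other 3 libraries, and counts of domains and gene neighbourhoods are given with PATZ1 KO values and with the GC trend removed. No such trend was removed from insulation, Hox contacts or the windows beside single promoters, and the part of GC content in those was not tested. Compartment assignments on chromosomes 7 and 14 differed between WT and PATZ1 KO of one state, and counts of compartment switches are also given without them. Chromosomes 6 and 8 had 1.57 and 1.52 times the contacts per bin of the median autosome in WT ESC, and 1.57 and 1.56 times in WT MN.

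Contacts of WT MN reached farther than those of WT ESC at the scale of 1 to 5 Mb. Of contacts outside single bins, 68.2% spanned under 200 kb in WT ESC and 64.3% in WT MN, a difference of -3.96 percentage points (-3.98 to -3.95). With WT ESC thinned to the depth of WT MN the difference was -6.58 points. Contacts of 1 to 2 Mb made up 2.96% in WT ESC and 6.01% in WT MN, 2.03-fold more. Those of 2 to 5 Mb made up 0.932% and 2.67%, 2.87-fold more. The same ranges held 3.17% and 6.17%, and 1.01% and 2.73%, in PATZ1 KO ESC and PATZ1 KO MN, so that the order of the states was the same in both genotypes. WT and PATZ1 KO of one state list the same pairs. At 2 to 5 Mb they had 951682 and 943319 contacts in ESC, and 1804079 and 1877666 in MN. Part of this likeness is therefore set by the listing.

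In the full lists the order of the states turned at long distances. With libraries scaled to equal totals, the mean contact of a bin pair was higher in WT ESC than in WT MN between 11.5 and 41.5 Mb, for example 0.000863 and 0.000499 at 21.9 Mb. From 48.7 Mb it was lower in WT ESC again, with 1.58e-05 and 5.85e-05 at 92.3 Mb. Over all distances of 20 Mb and more, contacts made up 0.405% in WT ESC and 0.340% in WT MN. With WT ESC thinned to the depth of WT MN its share was 0.316%, below that of WT MN. The listing rule leaves out sparse pairs, which lie mostly far apart. When contacts of unlisted pairs were estimated, an alternative added after seeing the data, 37.1% of WT ESC and 36.4% of WT MN contacts spanned under 200 kb, a difference of only -0.73 points. Contacts of 1 to 2 Mb were then 1.58-fold and those of 2 to 5 Mb 1.52-fold more frequent in WT MN, and those of 20 Mb and over 1.51-fold more frequent in WT ESC.

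**Figure D1:**
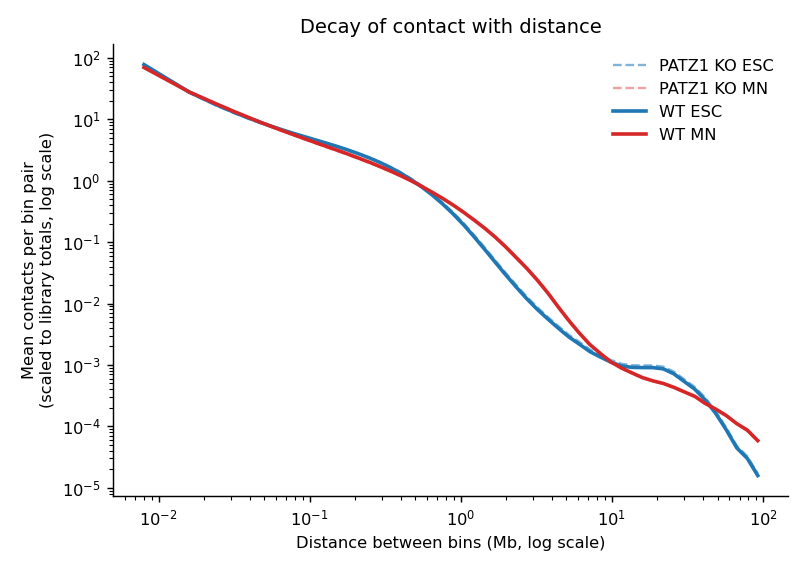
Mean contacts per bin pair (scaled to library totals, log scale) against the distance between bins (Mb, log scale), with WT libraries as solid and PATZ1 KO libraries as dashed lines. At 1.99 Mb the mean was 0.0291 in WT ESC and 0.0831 in WT MN, and the WT ESC line lies above the WT MN line from 11.5 to 41.5 Mb and below it again from 48.7 Mb.

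Compartments changed sides over a large part of the genome. An eigenvector of the contact matrix, with 32 of the 8 kb bins joined into 1 and the sign turned so that gene-dense chromatin was positive, put 50.6% of 9076 bins in A in WT ESC and 48.6% in WT MN. Between them 2059 bins, or 22.7% (21.8 to 23.6), had opposite signs. Of all bins, 1121 (12.4%) left A for B and 938 (10.3%) entered A. In PATZ1 KO 1919 bins (21.1%) did so, whereas WT and PATZ1 KO of one state differed in 2.55% of bins in ESC and 2.24% in MN. Without chromosomes 7 and 14, 20.4% of bins differed between the WT states and 20.3% between the PATZ1 KO states, against 0.479% and 0.504% between genotypes. WT and PATZ1 KO of one state list the same pairs. At 20 Mb and over they had 413964 and 412490 contacts in ESC, and 229340 and 229662 in MN. Part of the likeness between genotypes is therefore set by the listing. By chromosome the WT share ran from 11.8% on chromosome 6 to 48.5% on chromosome 7, with 45.3% on chromosome 16 and 39.4% on chromosome 12. On 7 chromosomes, 9, 12 and 16 among them, the eigenvector chosen had another number in WT ESC than in WT MN. Over the 11 others without chromosome 7, an alternative added after seeing the data, 18.7% of bins switched. The switched bins formed 587 runs that left A and 472 that entered it, with a median length of 1 bin and a longest run of 40 and 18 bins.

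Many pluripotency genes lay in A in WT ESC and in B in WT MN. Over 19628 protein-coding promoters, 1970 (10%) left A and 1308 (6.66%) entered it, while 12924 stayed in A and 3426 in B. Of 24 pluripotency genes 10 left A, 9 of them also in PATZ1 KO. All 24 were in A in WT ESC, so that none could enter it. Without chromosomes 7 and 14, 9 of 21 left A, against 9.95% of 17091 promoters. The bin that holds both Nanog, a core pluripotency factor, and Dppa3, a maternal factor of naive cells, had an eigenvector of 1.45 in WT ESC and -0.43 in WT MN. Zfp42, a marker of the naive state, went from 0.34 to -1.16, Klf4, a reprogramming factor, from 0.83 to -0.11 and Dppa4 from 1.68 to -0.81. Prdm14, Gdf3, Tcl1, Fbxo15 and Klf5 made up the 10, although Klf5 lies on chromosome 14 and stayed in A in PATZ1 KO MN, at 1.06. Tcl1 lies on chromosome 12 and Dppa4 on chromosome 16, where the eigenvector chosen had another number in each state. On these chromosomes 39.4% and 45.3% of bins switched. Sox2, which neural progenitors also use, was at 1.045 in WT ESC and 1.046 in WT MN, and Esrrb, another core factor, was in A in both states.

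Motor neuron genes lay in A in both states about as often as other genes. Of 24 such genes 16 did so, against 12924 of all 19628 promoters, while 4 entered A and 1 left it, with the same counts of switches in PATZ1 KO. Those that entered A were the guidance receptors Nrp1 (-1.12 in WT ESC, 0.67 in WT MN) and Robo2 (-0.14, 0.49), the guidance ligand Slit3 (-0.36, 0.13) and the transcription factor Onecut1 (-0.30, 0.02). The LIM factor Lhx3 was at 0.55 and 1.25, the motor neuron factor Mnx1 at 0.88 and 0.69, and Isl1 stayed in B at -0.20 and -0.81. Chat, which makes acetylcholine, was at 0.81 and 0.57, but it lies on chromosome 14 and went the other way in PATZ1 KO (0.73, 2.07). Chodl, a marker of fast motor neurons, went from 0.46 to -1.71. Robo2 and Chodl lie on chromosome 16 and Onecut1 on chromosome 9, where the eigenvector chosen had another number in each state. On chromosome 16, 45.3% of bins switched.

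The other lists were small, and their shares are to be read against the 10% of all promoters that left A and the 6.66% that entered it. Both are shares of all promoters, also of those that could not make the move. They are therefore low rates for a list that lay wholly in A or in B. Counts without chromosomes 7 and 14 still include chromosomes 12 and 16, where 39.4% and 45.3% of bins switched and the eigenvector chosen had another number in each state. Foxa1, named below, lies on chromosome 12. Of 21 pan-neuronal genes 2 entered A, Map2 (-0.77, 0.32) and Dpysl3 (-0.20, 1.48), and 3 left it, against 4 and 2 in PATZ1 KO. One that left was the neurofilament gene Nefl, which lies on chromosome 14 and stayed in A in PATZ1 KO, and without chromosomes 7 and 14 the counts were 2 and 2 of 19. Of 23 neural progenitor genes 2 entered A and 3 left it, against 1 and 1 in PATZ1 KO. Sox21 and Zic5 on chromosome 14, which left A, and Dbx1 on chromosome 7, which entered it, switched in WT only. Without these chromosomes 1 of 20 entered and 1 left in each genotype, but the gene that entered was Dbx2 in WT, from -0.00256 in WT ESC, and Nkx2-2 in PATZ1 KO, from -0.0115 in PATZ1 KO ESC, so that none entered in both. Of 19 retinoic acid response genes 1 entered A, Meis1, a Hox cofactor (-1.01, 0.40), and none left it. Among genes of other germ layers, 4 of 13 endoderm genes (Sox17, Foxa1, Gata6 and Ttr) and 3 of 14 mesoderm genes left A, and none of the 2 in each list that were in B entered it. Of 11 glial genes 1 went each way. All 18 housekeeping genes that were in A in WT ESC stayed there. The 30 Hox genes with a value, none of them in HoxC, were in A in both states, but they lie in only 6 joined bins. Of 164 developmental transcription factors 27 left A and 10 entered it, against 23 and 9 in PATZ1 KO, and 21 and 7 of 150 did so without chromosomes 7 and 14. All 16 architectural genes were in A in WT ESC. The 3 that left it were Patz1 itself (0.64, -0.86), the cohesin subunit Rad21 (0.35, -1.52) and the cohesin release factor Wapl, which lies on chromosome 14 and stayed in A in PATZ1 KO.

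The largest switches were single loci. A stretch of 5 such bins without protein-coding genes at chr18:55040001-56320000 had a mean eigenvector of -0.93 in WT ESC and 1.48 in WT MN, and -0.95 and 1.47 in PATZ1 KO. In the opposite direction, chr12:87296001-87552000 with Sptlc2, Alkbh1 and Snw1 went from 2.27 to -0.36, and chr9:88320001-88576000 with Nt5e, Snx14 and Syncrip from 1.55 to -1.03. Of the 5 runs with the largest shift each way, 4 that entered A lay on chromosome 7 and 3 that left it on chromosome 14, where PATZ1 KO of the same state differed, and the runs on chromosomes 9 and 12 lie where the eigenvector chosen had another number in each state.

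Contact between A bins was weaker in WT MN. Contact between B bins was stronger, except where WT ESC ranks were used for both states. A and B bins here were the top and bottom 20% by the eigenvector of each library, so that the bins differ between states. Observed over expected contact over 2 Mb between A bins was 3.14 in WT ESC and 2.46 in WT MN. That between B bins was 1.43 and 2.03. Contact between A and B bins was 0.216 and 0.223. PATZ1 KO gave 3.10 and 2.45 for A with A and 1.44 and 2.04 for B with B. With bins ranked by WT ESC in both states, A with A was 3.14 in WT ESC and 2.08 in WT MN. B with B was then 1.43 and 1.32, the other way. The log2 ratio of contact within to contact between compartments differed by -0.07 between the WT states. It differed by -0.16 with WT ESC thinned, -0.30 with 64 bins joined, -0.42 with bins ranked by GC content and -1.46 with WT ESC ranks used for both states, and by 0.01 without chromosomes 7 and 14. The size of the difference thus depended on the setting, and its sign turned without those chromosomes.

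**Figure D2:**
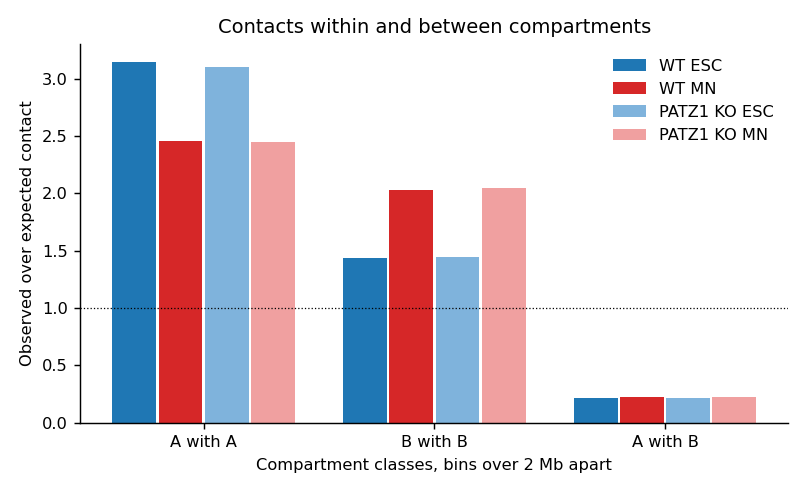
Observed over expected contact between bins over 2 Mb apart, for A with A, B with B and A with B, as bars for the 4 libraries from 0, with a dotted line at 1. A and B are the top and bottom 20% of bins by the eigenvector of each library. A with A was lower in WT MN (2.46) than in WT ESC (3.14) and B with B was higher (2.03 against 1.43), and the PATZ1 KO bars stand close to those of their state.

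The median TAD boundary was deeper in WT MN, by an amount that depended on the setting. The insulation score is the log2 of contacts crossing a bin, between the 240 kb on either side, over those within the flanks, and a lower score is stronger insulation. Over 3377 boundaries the median score was -0.83 in WT ESC and -0.96 in WT MN. The median difference was -0.15 (-0.16 to -0.14), and 2266 boundaries (67.1%) were deeper in WT MN. The PATZ1 KO difference was -0.10 (-0.11 to -0.08). By at least 1.5-fold, 355 boundaries (10.5%) were deeper and 61 (1.81%) shallower in WT MN, against 339 and 131 in PATZ1 KO. With the score taken over the chromosome mean the counts were 463 and 299, and 1822 boundaries (54.0%) were deeper by any amount. With the ESC libraries thinned to the depth of the MN libraries they were 272 and 112, and 59.5% were deeper. WT and PATZ1 KO of one state list the same pairs. Between them 0 boundaries were deeper by this measure, and 0 in ESC and 1 in MN were shallower. The difference was -0.10 for the 2059 weakest boundaries, -0.25 for 1272 of middle depth and -0.48 (-0.96 to -0.26) for the 46 deepest. Boundaries were called and classed by the mean of the WT ESC and WT MN scores. Over all bins these scores spread more in WT MN (SD 0.470) than in WT ESC (0.408), so that part of this gradient is set by the classing.

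Most boundaries were shared by both states. Of 3325 WT ESC boundaries 2213 (66.6%, 64.9 to 68.2) had a WT MN boundary within 2 bins, and these were 63.3% (61.7 to 64.9) of the 3494 WT MN boundaries. Between genotypes of one state, 89.3% of the WT ESC and 84.5% of the WT MN boundaries were shared. Genotypes of one state list the same pairs of bins, so that part of this sharing is set by the listing. The letters AGGGGGCG were in 15.1% of the shared and 14.0% of the unshared WT ESC boundaries, and in 14.2% and 14.5% of those of WT MN. A protein-coding promoter lay within 1 bin of 47.4% of shared and 45.0% of unshared WT ESC boundaries, and of 47.1% and 41.9% of those of WT MN, against 16.4% of all bins. The unshared boundaries thus had close to the same motif share as the shared ones.

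**Figure D3:**
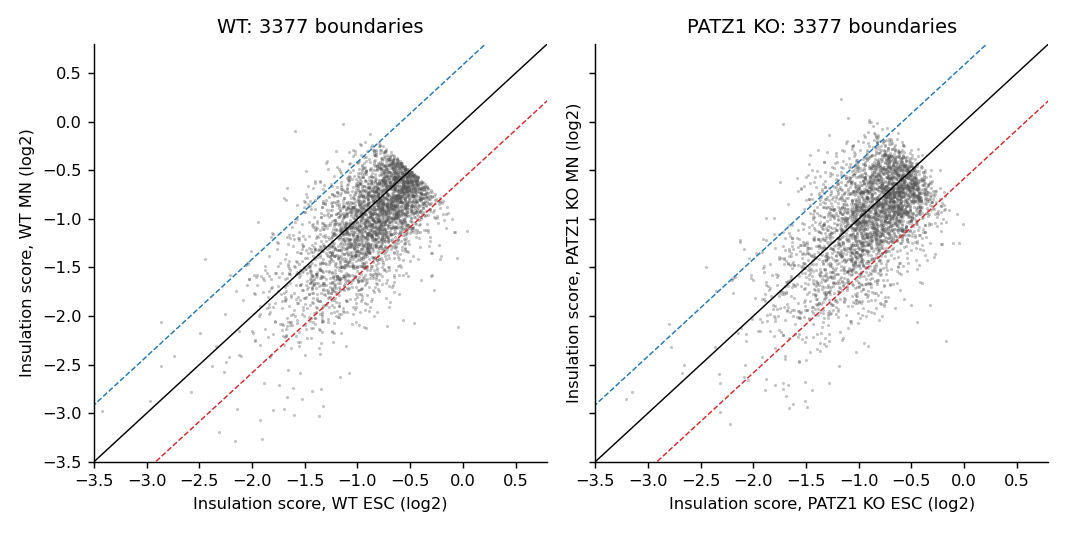
Insulation score (log2) of 3377 boundaries in MN against ESC, for WT and for PATZ1 KO, with lines at equality and at 1.5-fold. More points lie below equality than above in WT, where 355 were deeper and 61 shallower by at least 1.5-fold.

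The 5 boundaries that deepened most had their nearest start sites at distances from 4.23 to 418 kb. The bin at chr4:88808001-88816000, in the type I interferon cluster beside Ifna7, went from -0.04 in WT ESC to -2.12 in WT MN, a difference of -2.07 (-2.09 in PATZ1 KO). The bin at chr13:28960001-28968000, 10.3 kb from the start of Sox4, a factor of neuronal differentiation, went from -0.45 to -2.08. The bins nearest Zdhhc13 (-1.36, -3.03), Zfp536 (-1.33, -2.92) and Ppt1 (-1.43, -2.99) were the other 3 of the 5 with the largest gain, and their nearest start sites were 65.0, 418 and 64.2 kb away. The largest losses were at Gon4l, chr3:88848001-88856000 (-1.60, -0.10), at Hat1, a histone acetyltransferase (-0.89, 0.34), and at Khsrp, an RNA-binding protein whose bin holds the last sequence printed above (-1.16, 0.02). Tspoap1 (-0.97, 0.08) and the histone gene Hist1h2bp (-2.45, -1.41) followed, and all 10 moved the same way in PATZ1 KO.

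Hox genes stood at the deeper end of all promoters. Of 19568 promoter bins, 576 (2.94%) were deeper and 459 (2.35%) shallower in WT MN by at least 1.5-fold, with a median difference of 0.00. Of 39 Hox genes 17 were deeper and none shallower, with a median of -0.52 and a range from -1.54 to 0.11, and 16 of the 17 were also deeper in PATZ1 KO. Neighbouring Hox genes share bins and flanks and are not separate observations. By cluster, 8 of 11 HoxA genes, 8 of 9 HoxD genes, 1 of 10 HoxB genes and 0 of 9 HoxC genes were deeper. In HoxA and HoxD all 6 genes of paralogues 6 to 13 in each were deeper.

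The deepest point of HoxA lay in another bin in WT MN. In WT ESC it was chr6:52248001-52256000, between Hoxa11 and Hoxa13, at -1.57, and in WT MN it was chr6:52224001-52232000, over the Hoxa9 gene, which went from -1.33 to -2.81. PATZ1 KO had its minima in the same bins. The Hoxa9 intron sequence printed above lies in the WT MN minimum, the Hoxa7 intron sequence in the bin before it (-1.16, -2.70) and the sequence beside Hoxa10 in a bin that went from -1.55 to -2.63. In HoxD the minimum was chr2:74680001-74688000 in both WT states, which went from -1.60 to -3.02 and holds the Hoxd11 exon sequence, and in PATZ1 KO the minima lay up to 2 bins away. The bin upstream of Hoxb7 went from -0.98 to -1.51, and the minima of HoxC were -0.42 and -0.67. The differences were larger in HoxA and HoxD than in HoxB and HoxC, a contrast that was not tested.

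**Figure D4:**
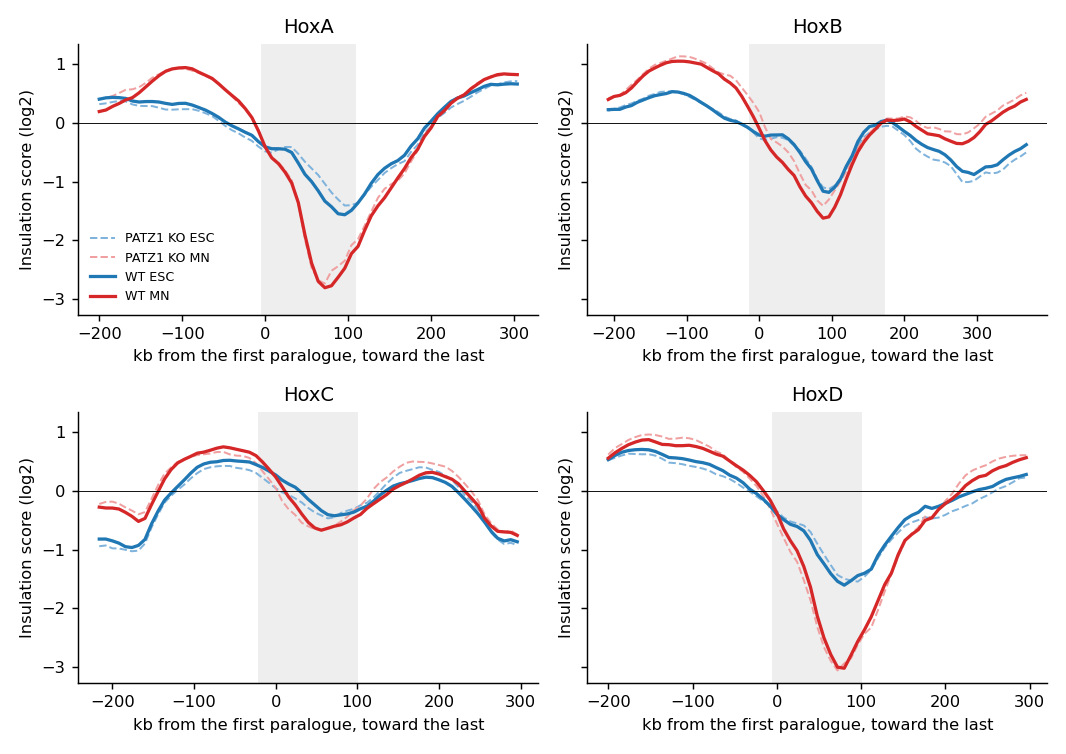
Insulation score (log2) along the 4 Hox clusters, against kb from the first paralogue toward the last, with WT as solid and PATZ1 KO as dashed lines. In HoxA and HoxD the MN lines reach -2.81 and -3.02 in WT, and the ESC lines -1.57 and -1.60, while the minima inside HoxC are -0.67 and -0.42.

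Contacts between the anterior (paralogues 1 to 5) and posterior (6 to 13) parts had a negative log2 ratio in all 4 clusters. Over joined pairs only HoxA passed 1.5-fold. HoxD was just short at -0.58 and passed at -0.82 (-1.10 to -0.54) from each library's own list. Hox ratios were not set relative to a median. Over the 4 clusters 2372 contacts in WT ESC stood against 1144 in WT MN, a scaled log2 ratio of -0.48 (-0.58 to -0.37) and of -0.88 in PATZ1 KO. The pooled WT ratio was thus under 1.5-fold, but at -0.60 from each library's own list it passed. HoxA had 716 and 263 contacts (log2 -0.87, -1.08 to -0.67), HoxD 328 and 148 (-0.58, -0.87 to -0.29) and HoxC 707 and 353 (-0.43, -0.61 to -0.24). HoxB had 621 and 380 (-0.13, -0.32 to 0.06), an interval that includes 0, although from each library's own list HoxB was at -0.33 (-0.51 to -0.15). The PATZ1 KO ratios were -1.50 in HoxA, -1.26 in HoxD, -0.50 in HoxC and -0.44 in HoxB. Contact within the anterior part had a positive log2 ratio instead, under 1.5-fold in each cluster. HoxA had 470 and 448 contacts (0.50, 0.31 to 0.69, PATZ1 KO 0.22). The ratio was 0.29 in HoxD, 0.30 in HoxC and 0.10 in HoxB, where PATZ1 KO had the opposite sign in each. The log2 ratio within the posterior part differed in sign between clusters, under 1.5-fold in WT in each. It was negative in HoxA (-0.27, PATZ1 KO -0.61) and HoxD (-0.42, PATZ1 KO -0.86), and positive in HoxB (0.29, PATZ1 KO 0.01) and HoxC (0.44, PATZ1 KO 0.20).

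Contact of the anterior parts with the flank on their own side had a positive log2 ratio in all 4 clusters. Over joined pairs only HoxB passed 1.5-fold. From each library's own list HoxA (0.62), HoxB (1.01) and HoxC (0.66) passed, and HoxD (0.52) did not. In HoxB and HoxC the ratios of the posterior parts were positive too, but under 1.5-fold over joined pairs. From each library's own list posterior HoxB passed, at 0.97 with the flank beyond paralogue 1 and 0.60 with that beyond paralogue 13. For the 496 kb beyond paralogue 1, HoxA had 2474 contacts in WT ESC and 2364 in WT MN (log2 0.49, PATZ1 KO 0.61), HoxB 1778 and 2074 (0.76, PATZ1 KO 0.68), HoxC 1799 and 1689 (0.49, PATZ1 KO 0.27) and HoxD 2163 and 1873 (0.31, PATZ1 KO 0.22). The posterior parts were at 0.03 in HoxA, 0.01 in HoxD, 0.56 in HoxB and 0.31 in HoxC with that flank, and at -0.08, -0.27, 0.34 and 0.39 with the flank beyond paralogue 13. With the flank beyond paralogue 13, anterior HoxA had 137 and 61 contacts (-0.68, PATZ1 KO -1.01) and anterior HoxD 57 and 23 (-0.75, PATZ1 KO -0.38). The intervals of HoxB, with 106 and 59 contacts (-0.28), and HoxC, with 300 and 214 (0.06), included 0. From each library's own list, which includes pairs with no contact in the other state, the ratios were -1.87 in HoxA, -1.95 in HoxD, -0.83 in HoxB and -0.19 in HoxC.

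Other developmental genes were insulated one by one. Of 169 developmental transcription factors 18 (10.7%) were deeper and 5 (2.96%) shallower in WT MN, against 2.94% and 2.35% of all promoters, and 13 of the 18 were also deeper in PATZ1 KO. Hoxa9, Hoxa13, Hoxd9 and Hoxd13, counted above, are 4 of the 18, so that 14 of 157 others were deeper, 9 of them also in PATZ1 KO, among them Nr2f1 (-0.22, -1.70), Tfap2a (-0.82, -2.02) and Sox9 (-0.06, -1.13). Of 22 neural progenitor genes 3 were deeper, namely the ventral patterning factor Nkx6-1 (-0.80, -1.75), Sox11 (-0.06, -1.41) and the Hedgehog receptor Ptch1 (0.08, -0.67). Of 19 retinoic acid response genes 4 were deeper, among them Dhrs3 (-0.62, -1.22) and Meis1 (-0.11, -1.001), and 2 of the 4 were also deeper in PATZ1 KO. No motor neuron gene of 24 and no pan-neuronal gene of 22 passed 1.5-fold in either direction. Neural patterning genes outside these calls moved less. Olig2, which specifies motor neuron progenitors, was at 0.51 and 0.84, Pax6 at 0.31 and 0.20, Irx3 at 0.06 and -0.07 and Sox1 at 0.15 and 0.05. Lhx3 was at 0.12 and 0.40, Isl1 at -0.04 and -0.39, Mnx1 at -0.27 and 0.16 and Chat at -0.31 and -0.54. Of 19 housekeeping genes 4 were shallower, among them Actb (-0.66, 0.05) and Eef1a1 (-1.03, 0.17), and 1 was deeper.

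Contacts of the Sox2 and Klf4 promoters with downstream DNA were lower in WT MN. Sox2 had 113 contacts in WT ESC and 16 in WT MN with chr3:34744001-34784000, 96 to 128 kb downstream (log2 -2.07, -2.93 to -1.31), and 65 and 9 in PATZ1 KO. Klf4 had 50 and 4 with chr4:55440001-55480000, 56 to 88 kb downstream (-2.99, -4.93 to -1.55), and 23 and 2 in PATZ1 KO. Nanog had 197 and 95 contacts 16 to 48 kb to its left (PATZ1 KO 143 and 85) and 153 and 80 to its right (PATZ1 KO 123 and 81). These windows were chosen after their values were seen. The Sox2 promoter itself was more insulated in WT MN, at -0.27 in WT ESC and -1.39 in WT MN, whereas Nanog was at 0.17 and 0.31.

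Distant contacts between promoters of developmental transcription factors were mostly in WT ESC. Each promoter was taken as 3 bins. Over 844 gene pairs more than 2 Mb apart on one chromosome, WT ESC had 26 contacts where 6.09 were expected from distance, 4.27-fold (2.79 to 6.25), and PATZ1 KO ESC 36 where 6.05 were expected. WT MN had 4 where 7.93 were expected, 0.505-fold (0.138 to 1.29), and PATZ1 KO MN 4 where 8.19 were. All protein-coding promoters stood at 1.13-fold in WT ESC and 0.806-fold in WT MN. The log2 difference of the developmental promoters was -3.08 (-5.06 to -1.55). Hoxa9 and Vax2, a ventral eye factor 31.5 Mb away, had 3 contacts in WT ESC, 5 in PATZ1 KO ESC and none in either MN library. The promoters of Zic1 and Zic4, which start in the same bin on chromosome 9, had 3 contacts with that of Sox14 in WT ESC and none in WT MN. The counts are small, several gene pairs share bins, and a contact had to occur in both genotypes to be listed.

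Contact inside domains followed GC content in WT and not in PATZ1 KO. Of 3270 domains between boundaries (median 464 kb), 17 (0.520%) were higher and 51 (1.56%) lower in WT MN relative to the median domain, and 12 and 3 in PATZ1 KO. From each library's own list 25 were higher and 152 lower, and at 2-fold 0 passed in either direction. The change had a correlation of 0.84 with GC content in WT and of -0.06 in PATZ1 KO over the domains, which share both libraries. Of the 51 lower domains 47 were among the 654 lowest in GC (4.13 genes per Mb), and 15 of the 17 higher ones among the 654 highest (22.3 genes per Mb). With the GC trend removed, 0 were higher and 4 lower. Of these, chr15:63816001-63936000 had only 30 contacts in WT ESC and 12 in WT MN, and chr17:13936001-14088000 22 and 11. Their intervals before the trend was removed included 0, and PATZ1 KO had the opposite sign. The others had the same sign in PATZ1 KO. The part of the GC dependence in the single WT values was not tested. The domain chr6:133208001-133880000 had 15111 contacts in WT ESC and 6334 in WT MN (log2 -0.69, PATZ1 KO -0.37), and chr4:150136001-150240000 with Eno1, Car6 and Slc2a7 had 609 and 725 (0.82, PATZ1 KO 0.28), both before the median was subtracted. With the GC trend removed they were at -0.43 and 0.42, both under 1.5-fold.

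**Figure D5:**
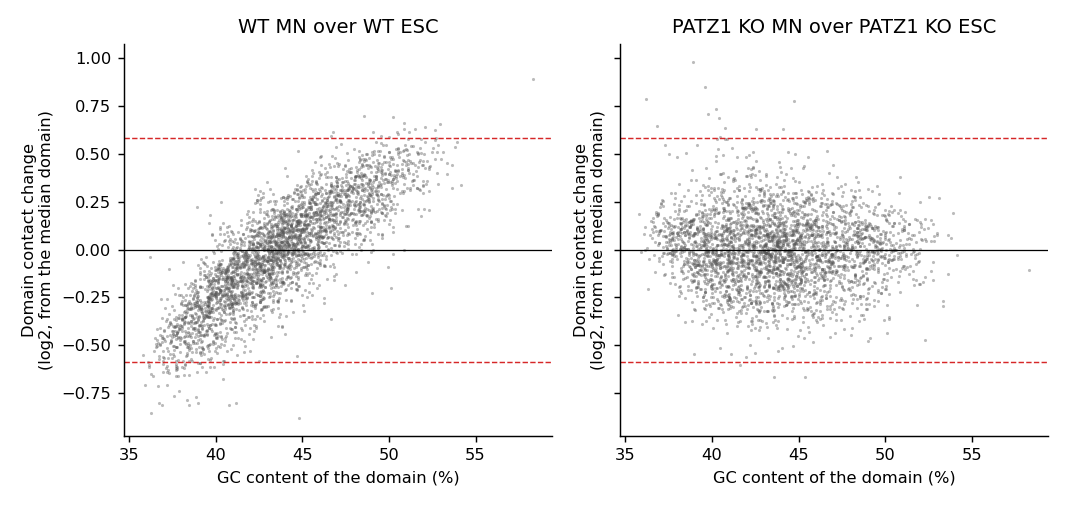
Change in contact within domains from ESC to MN (log2, from the median domain) against GC content (%), for WT and PATZ1 KO, with dashed lines at 1.5-fold. The WT points climb with GC (r of 0.84) and the PATZ1 KO points do not (r of -0.06).

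Gene neighbourhoods had the same dependence. Over 19553 genes, contact of the promoter 16 to 400 kb away was higher for 250 (1.28%) and lower for 1180 (6.03%) in WT MN, relative to the median gene, and for 109 and 167 in PATZ1 KO. From each library's own list the counts were 508 and 1878, and relative to the gene's contacts 1 to 10 Mb away they were 4967 and 4845, so that the excess of lower genes was not present on that scale. With the GC trend removed, 42 (0.215%) were higher and 92 (0.471%) lower, and 37 and 87 of these moved the same way in PATZ1 KO. Olfactory receptor genes, which lie in GC-poor clusters, gave 593 of the 1180 lower genes and 25 of the 92. They were 1085 of the 19553 genes, of which 6.03% were lower, or 0.471% with the GC trend removed. Their median was -0.61 in WT and -0.08 in PATZ1 KO, and -0.16 and -0.05 with the GC trend removed. The highest 10 were Slc2a7, Atp8b3, Tspan17, Fam213b, Lgals2, Abhd17a, Cstad, Card10, Mpg and Wnk2, and the lowest 10 held 7 olfactory receptor genes beside Cr2, Gm45871 and Tmem196. The lowest gene was Olfr1121, with 586 contacts in WT ESC and 176 in WT MN (log2 -1.33, PATZ1 KO -0.34), but at -0.72 with the GC trend removed it was no longer among the lowest 10. The highest was the sugar transporter Slc2a7, with 156 and 237 (1.01, 0.83 with the GC trend removed, PATZ1 KO 0.32).

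Single genes of the lists passed 1.5-fold, beside 1.28% of all genes that were higher and 6.03% that were lower. Of 169 developmental transcription factors 1 was higher and 3 lower, and of 25 pluripotency genes 0 and 3. The higher genes were Rpl13a (0.64), Barx1 (0.65) and Rbfox3 (0.60), at 0.32, 0.55 and 0.24 with the GC trend removed. Klf5, Pou3f2, Hoxd9 and Sdha were lower, beside those given next. Sox2 had 426 contacts in WT ESC and 184 in WT MN (log2 -0.81, -1.07 to -0.56), which was -0.78 with the GC trend removed and -0.34 in PATZ1 KO. Nanog had 718 and 345 (-0.64, PATZ1 KO -0.32), and its -0.58 with the GC trend removed was just short of 1.5-fold. Rad21 had 471 and 191 (-0.89, -0.64 with the GC trend removed, PATZ1 KO -0.32). Tfap2a, a neural crest factor, was at -0.77 with 114 contacts in WT MN, at -0.73 with the GC trend removed and at -0.95 in PATZ1 KO. Among motor neuron genes Lhx3 had 245 and 248 contacts (0.43, 0.11 with the GC trend removed, PATZ1 KO 0.06) and did not pass. Chodl was lower at -0.60 (PATZ1 KO -0.44), but only -0.09 with the GC trend removed. With the GC trend removed the highest 10 included Zeb1 (278 and 320 contacts), Nfia (346 and 368) and Fat3 (302 and 301), and the lowest 10 included Sox2, Cr2 (501 and 161), Zscan25 (296 and 123) and Cyp3a57 (417 and 178).

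Pairs of bins that stood out from their surroundings were compared last. Pairs 40 kb to 2 Mb apart with at least 20 contacts and 2 times the contact of the ring around them numbered 6525 in WT ESC and 1181 in WT MN, and 1071 in WT ESC thinned to the depth of WT MN. They shared 428, or 36.2% (33.5 to 39.1) of the WT MN list and 6.56% of the WT ESC list. With WT ESC thinned they shared 223, or 18.9% of the WT MN list. WT and PATZ1 KO lists of one state shared 21.04% of the WT ESC and 27.7% of the WT MN list. The lists differ in size, and even WT and PATZ1 KO of one state did not share most of theirs. Over 407 pairs at 200 kb and over chosen in PATZ1 KO ESC, contact over the ring was 3.22 in WT ESC and 2.52 in WT MN. Over 293 chosen in PATZ1 KO MN it was 3.13 and 2.84, although contact of these over the mean at their distance was 20.3 in WT ESC and 25.7 in WT MN, the other way. For the 407 pairs that measure was 16.7 and 12.8. Single pairs of bins at least 40 kb apart with 100 contacts or more numbered 25, from -1.20 near Chia1 (93 contacts in WT ESC, 27 in WT MN) to 0.58 near Sfi1 (195 and 196), and PATZ1 KO was at -0.11 and -0.25 for these.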

How the data were processed

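Micro-C libraries of WT and PATZ1 KO ESC and MN, 1 each, were analysed. The authors' deposited tables give contact counts per pair of 8 kb bins on mm10 (per the labels), as made for HiCcompare. The first count column was read as WT and the other as PATZ1 KO, because the labels call it a comparison of WT with KO. Columns that hold the authors' own comparison were not used. Aligner and read filters were those of the authors. Bins with at least 50 contacts in each of 4 libraries were kept (290346 of 307852 bins on autosomes).

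WT MN and WT ESC lists were joined on bins (11900118 pairs) and scaled to totals by distance. Domains, gene neighbourhoods, Hox contacts and single pairs of bins used these joined pairs. Decay, insulation, boundaries, pairs over their ring, developmental contacts and depth used each library's own list. Compartments were eigenvectors with 32 bins joined, boundaries were local minima of the insulation score under -0.5, and domains lay between boundaries. Each fold used 1 library a side, so no test was run. Shares have Clopper-Pearson intervals and medians order-statistic ones. The named genes were the core genes of each list and those with the largest change, 10 each way for gene neighbourhoods and 5 each way for domains, boundaries and compartment runs, of which only a part is printed, and some items are not reported here. Other genes named were chosen after their values were seen. Members and lists were chosen with earlier results of these data known. Scripts were tested on simulated data. Python 3.11.15, NumPy 2.4.6, pandas 2.3.3, SciPy 1.17.1, PyArrow 21.0.0 and Matplotlib 3.10.9 were used. Alternatives changed bin size, flanks, thresholds, scaling, list and depth.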

Additional observations from a re-analysis of the deposited data

Results flagged for a closer look

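The following differences had opposite signs in WT and PATZ1 KO, each from 1 pair of libraries, and the difference between the genotypes was not tested. The correlation of domain contact change with GC content was 0.845 in WT and -0.063 in PATZ1 KO.

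Among Hox contacts (log2, MN over ESC), anterior with anterior was 0.29 and -0.10 in HoxD, 0.10 and -0.07 in HoxB and 0.30 and -0.47 in HoxC. Posterior with the flank beyond paralogue 1 was 0.0133 and -0.0940 in HoxD and 0.0272 and -0.00960 in HoxA. Anterior with the flank beyond paralogue 13 was 0.0639 and -0.0955 in HoxC. The WT intervals of anterior with anterior in HoxD and HoxC excluded 0, and those of the other blocks named here included it. These ratios were not set relative to a median, as the calls of domains and genes were. The median gene was at 0.16 in WT and 0.04 in PATZ1 KO, and the WT values of those other blocks lay below that WT median.

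The neighbourhood contact change was 0.0746 and -0.145 for Nkx6-1, -0.14 and 0.09 for Hoxa5, 0.0641 and -0.0580 for Sox1, -0.17 and 0.22 for Zfp42, -0.18 and 0.22 for Tubb3, 0.18 and -0.12 for Esrrb, and -0.0601 and 0.115 for Rarb. The insulation change was -0.11 and 0.19 at Sox1 and -0.24 and 0.12 at Pou5f1. All of these gene values were under 1.5-fold in both genotypes.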

How the results depend on the processing

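No paired analysis was possible because each group was 1 library, and for the same reason no library could be left out. The share of contacts under 200 kb differed by -4.78 points with the limit at 1 Mb, -3.13 over joined pairs, -6.58 with WT ESC thinned and -0.73 with unlisted pairs estimated. Compartment switches were 21.4% with 64 bins joined, 20.9% oriented by GC content, 17.2% without the tenth of bins nearest 0, 20.4% without chromosomes 7 and 14 and 18.7% on the 11 other chromosomes with the same eigenvector number in both states. Compartment strength differed by -0.30 with 64 bins joined, -1.46 with WT ESC ranks, -0.16 thinned and -0.42 ranked by GC, and turned to 0.00612 without chromosomes 7 and 14. The boundary difference was -0.12 with 120 kb and -0.11 with 480 kb flanks, -0.0479 over the chromosome mean and -0.0830 thinned. Boundary sharing was 75.9% of the WT ESC and 72.2% of the WT MN list within 4 bins, 63.2% and 65.0% with 480 kb flanks, and 64.1% and 65.5% thinned. Domains past the threshold numbered 177 from own lists (152 lower), 0 at 2-fold (0 higher, 0 lower) and 4 with the GC trend removed (0 higher, 4 lower). Genes numbered 2386 from own lists (508 higher, 1878 lower), 9812 relative to contacts 1 to 10 Mb away (4967, 4845), 785 with at least 500 contacts (106, 679) and 134 with the GC trend removed (42, 92). Pooled anterior with posterior Hox contact was -0.60 from own lists. Pairs over their ring shared 55.7% of the WT MN list with at least 30 contacts (669 in WT ESC, 106 in WT MN) and 18.9% thinned (1071 in WT ESC). Beyond the construction of each setting, the cause was not tested.

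Single Hox blocks were also computed from own lists, with library totals and with scaling within the chromosome. Of the 84 block values this gave, 64 moved by less than counting error and 20 by more. The sign changed for 3 blocks whose 95% interval included 0: anterior HoxC with the flank beyond paralogue 13 (0.0639) to -0.19 from own lists, posterior HoxA with that flank (-0.0773) to 0.0269 with library totals and anterior with anterior HoxB (0.0979) to -0.0136 scaled within the chromosome. Distant developmental contact gave no ratio over joined pairs (0 contacts in each library) or with the promoter bin alone (8 in WT ESC, 0 in WT MN), and was -2.62 over 5 Mb. The estimate of unlisted pairs, the sets of chromosomes, the GC ranking and the GC trends were chosen after seeing the data. A listed pair had a mean of 7.48 contacts in WT ESC and 5.33 in WT MN.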
